A study of Mus musculus with 16 samples.

Results

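Lymphatic endothelial cells line the vessels that drain fluid, lipid and immune cells from the lung. They were taken here as the cells that the authors' deposited cell table annotates as lymphatic endothelium, and they numbered 577 of 80449 cells (0.717%). The series profiled whole-lung suspensions from mice given vehicle, 6-OHDA or BIBO3304, each with and without seeded pancreatic ductal adenocarcinoma (PDAC) cells, and its title places the work on sympathetic neurons, neuropeptide Y and its receptor NPY1R in lung seeding by this cancer. 6-OHDA (6-hydroxydopamine) is a toxin taken up into sympathetic terminals through the norepinephrine transporter, and BIBO3304 is an antagonist of NPY1R. Live cells, negative for the dye DAPI, were sorted from the dissociated lungs, barcoded by the split-pool Evercode chemistry (Parse Biosciences) and sequenced on an Ultima instrument.

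The 15 samples formed 6 groups. Vehicle, 6-OHDA and BIBO3304 without seeded cancer cells had 3 samples each, and vehicle-PDAC, 6-OHDA-PDAC and BIBO3304-PDAC had 2 each. The deposited cell table marks each sample by condition, where control was read as vehicle, and as IV or nonIV, where IV was read as seeded. Of 312 annotated cancer cells, 308 lay in the 6 samples marked IV. Vehicle 1, 2 and 3, marked nonIV, held 2, 1 and 1. Below, samples without cancer cells are those marked nonIV. Vehicle-PDAC 2, marked IV, held 0 annotated cancer cells. Fold changes and list medians that rest on it, and some counts of calls, are therefore given with and without it. Without it vehicle-PDAC is 1 sample assumed to vary like the others. Strain, age, dose, duration of treatment and the PDAC line were not stated in the labels used here, and the labels do not say whether a numbered sample is 1 mouse or a pool.

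Lymphatic endothelium arises from venous endothelium, and its identity is maintained by the transcription factor Prox1. Its growth depends on the ligand Vegfc, which signals through the receptor Flt4 (VEGFR3) with the co-receptor Nrp2, while the Tie2 ligand Angpt2 and adrenomedullin signalling through Calcrl and Ramp2 shape the maturing vessels. In the lung, initial lymphatics draw dendritic cells and lymphocytes with the chemokine Ccl21a, and collecting vessels carry valves.

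The lymphatic cells gave 1153534 transcripts, from 25890 in 6-OHDA-PDAC 2 to 179068 in BIBO3304 3, with a median of 1386 transcripts and 755 genes per cell. They were spread over all 16 sequenced sublibraries, with 21 to 58 cells in each, and 0 cell names were repeated. Well barcodes recur between sublibraries, and 131 lymphatic cells carried one also seen in another sublibrary, where the sublibrary is part of the cell's name. The median depth per lymphatic cell was 1294, 965.5 and 1103 transcripts in the vehicle samples, 1358, 1259 and 1302 in 6-OHDA and 1910, 3278 and 2587 in BIBO3304. The BIBO3304 samples were deeper than every vehicle sample, and deeper libraries have less counting error. Levels below are transcripts per 1000000 of all lymphatic transcripts in the sample (CPM). The mean and SD over the 15 samples describe the spread across all groups.

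The 4 genes taken as lymphatic markers, Prox1, Mmrn1, Flt4 and Ccl21a, were found in most of the annotated cells and, apart from Flt4, in few general capillary cells. Prox1, the master regulator of lymphatic fate, had a transcript in 56.2% of lymphatic cells, against 0.132% of general capillary cells, which were sequenced to a like median depth of 1382.5 transcripts, and 1.39% of alveolar macrophages, which had a median depth of 2932. Mmrn1, which encodes the secreted matrix protein multimerin 1, was seen in 66.7% of lymphatic and 0.120% of general capillary cells. Ccl21a, the ligand of Ccr7, was seen in 80.2% and 0.432%. The receptor Flt4 was less exclusive, at 70.2% of lymphatic and 15.5% of general capillary cells. All 4 markers were present together in 183 cells (31.7%), 3 in 175, 2 in 123 and 1 in 74, and 22 cells (3.81%) had none.

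The markers were present in every sample. Prox1 stood at 985, 868 and 776 CPM in vehicle 1, 2 and 3, 972, 886 and 615 in 6-OHDA, 1266, 945 and 1011 in BIBO3304, 697 and 795 in vehicle-PDAC, 998 and 695 in 6-OHDA-PDAC and 647 and 391 in BIBO3304-PDAC. The lowest value belonged to BIBO3304-PDAC 2 and the highest to BIBO3304 1, and the 3 groups without cancer cells overlapped. Ccl21a ranged from 1597 to 4058 CPM over the 15 samples, Mmrn1 from 530.5 to 1828 and Flt4 from 748 to 1699.5. Reln, which encodes the glycoprotein reelin, was found in 79.0% of lymphatic and 0.300% of general capillary cells. It ranged from 1312 to 4017 CPM. Lyve1, the hyaluronan receptor often used to stain lymphatics, did not set these cells apart. It was seen in 36.4% of lymphatic and 26.9% of general capillary cells, and its mean level of 465 ± 181 CPM (SD, n = 15) lay below the 623 CPM of large-vessel endothelium. The membrane glycoprotein Pdpn had 283 ± 95.5 CPM in lymphatic cells against 2.66 in general capillary, 4.36 in aerocyte and 0.498 in large-vessel cells, while alveolar type 1 cells had 346 CPM when pooled.

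Defining transcripts of the other endothelial types were low in the lymphatic cells. The 8 general capillary markers summed to 130.0 CPM in the pooled lymphatic cells against 4511 in their own type, with Aplnr and Glp1r at 0. The 8 aerocyte markers summed to 153 against 5364 CPM, and the 9 large-vessel markers to 89.3 against 7995 CPM, with Ackr1 at 0. Transcripts of non-endothelial cells were also present. Of the 577 lymphatic cells, 81 held 2 or more transcripts of Ptprc, Chil3, Sftpc, Scgb1a1, Col1a1 or Col3a1. The 10 leukocyte genes summed to 519 CPM, against 3736 in monocytes and 371 in general capillary cells. The 10 fibroblast genes summed to 378 CPM, against 8803 in alveolar fibroblasts and 238 in general capillary cells. All 10 alveolar macrophage markers were detected, with a sum of 1004 CPM against 7395 in alveolar macrophages and 429 in general capillary cells. Of this sum, 575 CPM came from Mrc1, the mannose receptor, which lymphatic endothelium itself is known to express. The alveolar type 2 list summed to 242 CPM in lymphatic and 219 in general capillary cells, and the smooth muscle list to 11.3 CPM, with Cnn1, Cspg4, Cox4i2 and Higd1b at 0.

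The genes that set lymphatic cells furthest from the other 3 endothelial types span adhesion, secretion, transcription and guidance. Since the annotation rests on the transcripts of these same cells, the ratios describe the cells and were not tested. Ccl21a was 788-fold above its highest level in another endothelial type, Reln 734-fold, the secreted semaphorin Sema3d 263-fold, the scavenger receptor Stab2 195-fold and the proprotein convertase Pcsk6 194-fold. Mmrn1 had 1387 transcripts in the 577 lymphatic cells and 10, 2 and 4 in all general capillary, aerocyte and large-vessel cells. Among transcription factors, Maf averaged 1109 ± 310.4 CPM and was 142-fold above the other endothelial types, Prox1 averaged 837 ± 211 CPM and was 134-fold above them, and Tbx1 averaged 104 ± 74.5 CPM (SD, n = 15 for each). Nts, which encodes the peptide neurotensin, had 122 transcripts in lymphatic cells and 0 in the other 3 endothelial types. Against a floor of 3 transcripts over all aerocytes, the smallest of those pools, it was at least 166-fold higher in lymphatic cells. Apba2, Sh3gl3, Btnl9, Fgf12, Dapk2, Plce1, Slc45a3, Slc16a12 and A830019P07Rik were also among the 20 genes with the highest ratios at a mean of at least 50 CPM.

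**Figure D1:**
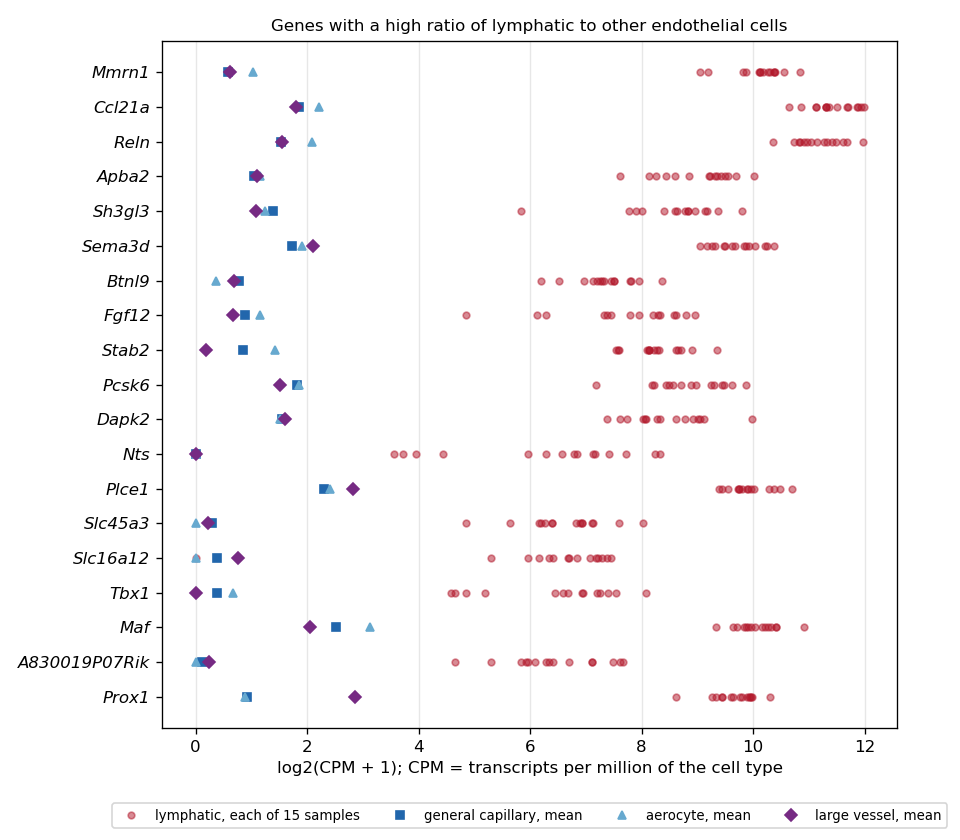
Levels of genes among the 20 with the highest ratio of lymphatic to other endothelial cells, on a log2(CPM + 1) axis. The small points are the 15 samples' lymphatic cells and the other symbols the mean levels in the 3 other endothelial types; Mmrn1, Ccl21a and Reln lie farthest from them.

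The venous factor Nr2f2 (COUP-TFII), which acts with Prox1, averaged 320.1 ± 77.2 CPM in lymphatic cells and 104 in large-vessel endothelium, against 9.66 in general capillary and 4.66 in aerocyte cells. Itga9, the integrin chain needed for lymphatic valve leaflets, averaged 1048 ± 229 CPM against 302 in large-vessel cells (SD, n = 15). Sox18, also known from lymphatic development, was at 10.7 CPM and did not stand above the other endothelial types. Valve genes were unevenly represented. Foxp2, Gja1 and Nfatc1 averaged 242 ± 127, 251 ± 86.4 and 506 ± 200.1 CPM, whereas Foxc2 had 3 transcripts over all lymphatic cells, the tight junction gene Cldn11 had 10 and the connexin gene Gja4 had 0. A count of 0 in the pool allows up to 2.60 CPM, for counting error only.

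In the Vegfc pathway, lymphatic cells carried the receptor and blood endothelium the ligand. Flt4 averaged 1219.6 ± 276 CPM in lymphatic cells and 108, 79.6 and 56.5 in general capillary, aerocyte and large-vessel cells. Nrp2 averaged 1362 ± 364 CPM against 64.0, 19.0 and 359. Its paralogue Nrp1, the co-receptor of Vegfa, showed the opposite order, at 19.8 CPM in lymphatic cells against 1337 in aerocytes, a level 67.4-fold lower. Kdr (VEGFR2) averaged 404 ± 105 CPM, between the 169.9 of general capillary cells and the 988 of aerocytes. Vegfc itself had 3 transcripts in the lymphatic cells, while large-vessel endothelium averaged 420.4 CPM and general capillary cells 181. The genes for Vegfc processing were also scarce in lymphatic cells. Adamts3, the protease that activates Vegfc, had 1 lymphatic transcript, and its cofactor Ccbe1 had 5, with the highest pooled level of Ccbe1 in alveolar fibroblasts, at 323 CPM.

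The angiopoietin axis was arranged otherwise. Angpt2, the context-dependent Tie2 ligand, averaged 172 ± 119.9 CPM in lymphatic cells and 13.3-fold less in general capillary cells, the next endothelial type. Its spread over samples was wide, from 27.9 to 506 CPM. The receptor gene Tek (Tie2) was lower in lymphatic cells, at 181 ± 92.5 CPM against 1294 in general capillary cells, and Tie1, the related receptor, averaged 181 ± 74.3 CPM against 249. For adrenomedullin, the receptor Calcrl averaged 806 ± 195 CPM against 3637 in general capillary cells, and its partner Ramp2 60.5 ± 28.5 CPM against 291 in aerocytes. Both were thus lower in lymphatic than in capillary endothelium.

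**Figure D2:**
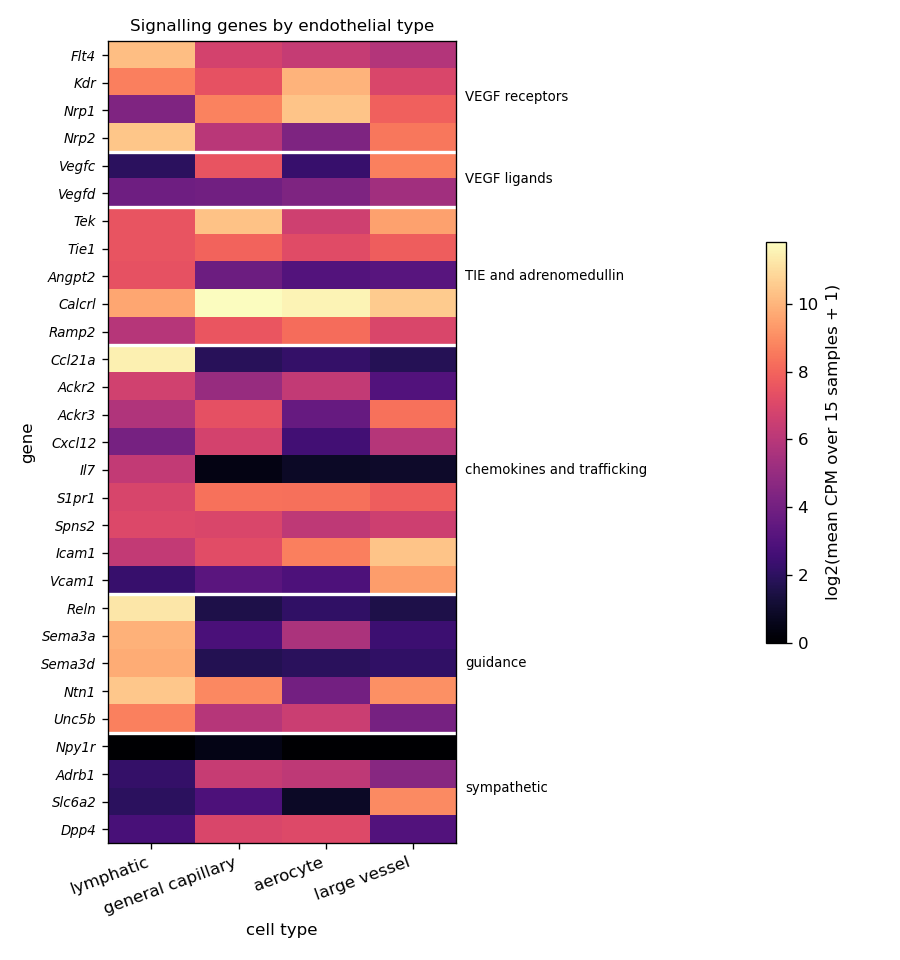
Signalling genes as log2(mean CPM over the 15 samples + 1) in the 4 endothelial types, by role, with lighter cells for higher levels. Flt4, Nrp2 and Angpt2 are lightest in the lymphatic column, and Vegfc, Nrp1 and Tek in columns of blood endothelium.

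Among genes that guide leukocytes, the lymphocyte survival cytokine Il7 was at 75.8 ± 32.4 CPM and 80.9-fold above large-vessel cells. The scavenging chemokine receptor Ackr2 averaged 102 ± 45.6 CPM against 74.9 in aerocytes, and the scavenger receptor Stab1 585 ± 176 CPM against 158. The sphingosine 1-phosphate transporter Spns2, which feeds lymphocyte exit, averaged 131 ± 51.6 CPM, close to the 123 of general capillary cells. Adhesion molecules of inflamed blood vessels were low. Vcam1 had 6 lymphatic transcripts and 676 CPM in large-vessel endothelium, Sele had 1, and Icam1 averaged 74.6 ± 53.9 CPM against 1329. Cxcl12, the ligand of Cxcr4, was found in 2.95% of lymphatic and 13.99% of general capillary cells.

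Of the axon guidance ligands, 3 are described here, chosen after their values were seen. Ntn1 (netrin 1) averaged 1422 ± 433 CPM against 535 in large-vessel cells, Sema3a 956 ± 476 against 48.5 in aerocytes and Sema3d 866 ± 248 against 3.30 in large-vessel cells. The netrin receptor Unc5b averaged 422 ± 209 CPM against 88.3 in aerocytes. These ligands are known to steer both nerve fibres and vessels.

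The receptors of the sympathetic transmitters were scarce. None of the 577 lymphatic cells had a transcript of Npy1r, the receptor that BIBO3304 blocks, which allows a share of up to 0.520% of cells with a transcript at this depth. Npy2r, Npy4r, Npy5r and Npy were also at 0, and the highest pooled level of Npy1r, 42.6 CPM, was in smooth muscle cells and pericytes. Of the adrenergic receptors, Adra1a had 13 lymphatic transcripts and Adrb1 5, while Adra1d, Adra2a and Adra2c had 0. Adrb1 averaged 83.9 CPM in general capillary cells. Dpp4, a peptidase that cleaves neuropeptide Y, had 6 lymphatic transcripts against 138 CPM in aerocytes, and the norepinephrine transporter Slc6a2, through which 6-OHDA enters cells, had 2 against 486 CPM in large-vessel endothelium. In the gene test described next, 0 of the 16 adrenergic and neuropeptide Y genes passed the filter on low counts, so their response to treatment was not measurable at this depth.

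No comparison of the lymphatic share passed its test. Vehicle samples 1, 2 and 3 gave 79, 30 and 47 lymphatic cells, or 0.986, 0.477 and 0.620% of all cells. The 6-OHDA samples gave 0.807, 0.869 and 0.824% and the BIBO3304 samples 0.869, 0.746 and 1.12%. Vehicle 1 lay above all 3 6-OHDA samples and vehicle 2 and 3 lay below them, and the BIBO3304 values also overlapped those of vehicle. With PDAC cells the shares were 0.602 and 0.502% in vehicle-PDAC, 0.632 and 0.486% in 6-OHDA-PDAC and 0.714 and 0.676% in BIBO3304-PDAC. These ranges fell within that of the vehicle samples without cancer cells. The exact 95% binomial interval of counting error ran from 0.782 to 1.23% in vehicle 1 and from 0.322 to 0.680% in vehicle 2, so these samples of 1 group differed by more than counting error. All shares are of cells that survived dissociation and the live-cell sort.

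For 6-OHDA the mean share was 0.833% ± 0.0317 against 0.694% ± 0.263 in vehicle (SD, n = 3 and 3; log2 ratio 0.25, SE 0.29, edgeR adjusted p = 0.566, two-sided exact permutation p = 0.400). For BIBO3304 it was 0.911% ± 0.189 (log2 ratio 0.39, SE 0.29, edgeR adjusted p = 0.301, two-sided exact permutation p = 0.300). PDAC cells in vehicle mice gave 0.552% ± 0.0703 (n = 2; log2 ratio -0.34, SE 0.32, edgeR adjusted p = 0.963, two-sided exact permutation p = 0.800), and without vehicle-PDAC 2 the log2 ratio was -0.21. With PDAC cells, the log2 ratio to vehicle-PDAC was 0.03 for 6-OHDA (edgeR adjusted p = 0.968) and 0.34 for BIBO3304 (edgeR adjusted p = 0.721), and without vehicle-PDAC 2 it was -0.10 and 0.21. Adjusted values are over the 22 cell types. The smallest p these exact permutation tests can give is 0.1 without cancer cells and 0.333 between seeded groups, so only the edgeR test could pass 0.05. As a share of endothelial cells, lymphatic cells made up 6.00, 5.64 and 3.65% in vehicle, 5.33, 5.53 and 4.73% in 6-OHDA and 3.89, 3.12 and 4.47% in BIBO3304, which reverses the direction for BIBO3304.

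**Figure D3:**
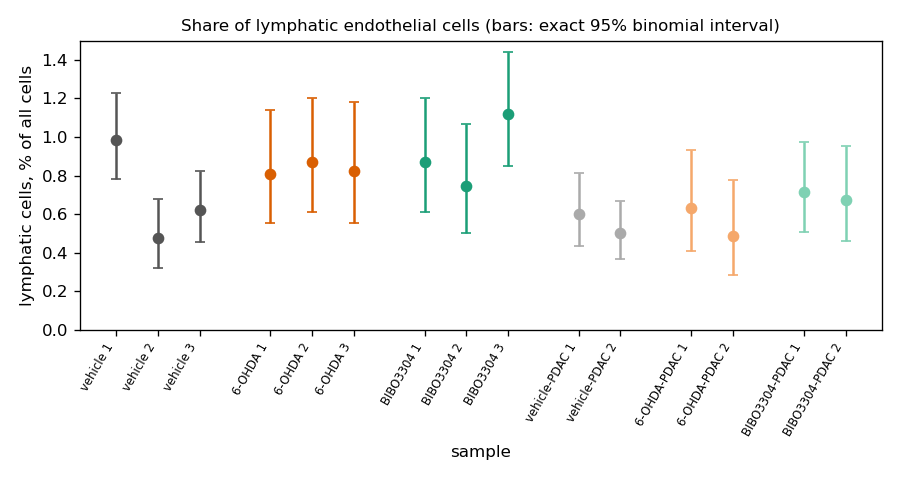
Lymphatic cells as a percentage of all cells in each sample, coloured by group, with the exact 95% binomial interval of counting error. The 3 vehicle samples run from 0.477% to 0.986% and cover the values of all groups except BIBO3304 3.

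Expression was compared on transcripts summed per sample over lymphatic cells, in 2868 genes, with edgeR's quasi-likelihood test and Benjamini-Hochberg adjustment over all genes tested. 6-OHDA-PDAC 2, with 17 lymphatic cells, fell below the minimum of 20 and was left out, so 6-OHDA-PDAC is 1 sample assumed to vary like the others. Between 6-OHDA and vehicle without cancer cells, 3 genes passed an adjusted p of 0.05, which is 0.105% of those tested. The chaperone genes Hspa1b and Hsph1 rose and the locus Mir6236 fell. At an unadjusted p under 0.05 there were 177 genes, and DESeq2 called 1, which was Mir6236.

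Hspa1b encodes an inducible cytosolic HSP70, which binds unfolded protein. It stood at 7.24, 0 and 120.4 CPM in vehicle 1, 2 and 3 and at 558, 17.7 and 1368 in 6-OHDA 1, 2 and 3. 6-OHDA 1 and 3 were far above all vehicle samples, but 6-OHDA 2 lay below vehicle 3, so the groups overlapped. The log2 fold change was 3.86 (SE 0.74, edgeR adjusted p = 0.00920). The signal came from 27 transcripts in 9 of 32 cells in 6-OHDA 1, of which 15 were in 1 cell, from 1 transcript in 6-OHDA 2 and from 60 transcripts in 17 of 29 cells in 6-OHDA 3. DESeq2 put the change at 3.91 with an adjusted p of 0.999. The edgeR call was lost without vehicle 1 (3.01, adjusted p = 0.163), vehicle 2 (3.58, 0.134) or 6-OHDA 3 (2.66, 0.501), and without vehicle 3 the estimate grew to 6.42.

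Hsph1 encodes HSP110, a nucleotide exchange factor for HSP70. It stood at 14.5, 0 and 134 CPM in vehicle and 951, 35.5 and 1094 in 6-OHDA. The same samples, 6-OHDA 1 and 3, were high, and 6-OHDA 2 again lay below vehicle 3. The log2 fold change was 3.71 (SE 0.78, edgeR adjusted p = 0.0259), and DESeq2 gave an adjusted p of 0.999. In edgeR the call was lost without vehicle 1, vehicle 2, 6-OHDA 1 or 6-OHDA 3 (adjusted p = 0.195, 0.319, 0.148 and 0.312), and without vehicle 3 the estimate was 5.70.

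Both promoters are shown because these genes moved together. Heat shock factor 1, the known activator of chaperone genes, binds inverted repeats of the unit GAAN. The sequences run from 250 bases before the start of the gene to 50 bases after it, 5′ to 3′ on the minus strand, from RefSeq on GRCm38.p6, with capitals on matches to GAANNTTC or TTCNNGAA and on the longer motif that extends the latter by NNTTC. The first of 2 RefSeq entries is shown for Hsph1. The Hspa1b window is chr17:34959189-34959488 and the Hsph1 window chr5:149636287-149636586.
Hspa1b: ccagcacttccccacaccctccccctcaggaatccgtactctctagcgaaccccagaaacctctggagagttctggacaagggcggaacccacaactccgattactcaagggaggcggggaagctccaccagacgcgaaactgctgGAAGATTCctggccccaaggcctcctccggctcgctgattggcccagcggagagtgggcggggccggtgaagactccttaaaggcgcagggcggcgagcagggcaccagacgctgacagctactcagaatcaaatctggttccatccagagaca
Hsph1: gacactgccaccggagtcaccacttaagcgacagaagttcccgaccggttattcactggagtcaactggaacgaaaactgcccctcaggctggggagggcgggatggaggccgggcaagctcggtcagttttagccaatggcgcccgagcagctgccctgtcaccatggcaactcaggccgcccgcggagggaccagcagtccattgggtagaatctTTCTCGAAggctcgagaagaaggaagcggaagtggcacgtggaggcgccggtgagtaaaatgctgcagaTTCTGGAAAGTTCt
The Hspa1b window holds 1 match with 2 units, and the Hsph1 window holds 1 match with 3 units besides a separate match with 2. The background was 32851 promoters of the same length in the RefSeq table, with 1 chromosome left out. Of these, 15.1% held GAANNTTC or TTCNNGAA on either strand. The longer motif, GAANNTTC extended by NNGAA or TTCNNGAA extended by NNTTC, was in 0.603%. Of the 21 heat shock genes in the list described next, 17 had a promoter entry in that background and 4 of them, Chordc1, Hspd1, Hspe1 and Hsph1, held the longer motif. A match describes letters, and no binding was measured.

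Of the 21 heat shock genes, 15 were tested between 6-OHDA and vehicle. The 2 named above were called, and all 15 estimates lay above 0, with a median log2 fold change of 0.73 against -0.01 over all genes tested. Dnaja1, an HSP40 co-chaperone, had 225, 48.2 and 147 CPM in vehicle and 476, 301 and 456 in 6-OHDA, with every 6-OHDA sample above every vehicle sample, and did not pass (1.29, edgeR adjusted p = 0.342). Hspa1a, a near-identical copy of Hspa1b whose reads may be split between the copies, was at 0, 0 and 26.8 CPM in vehicle and 124, 35.5 and 274 in 6-OHDA (3.82, edgeR adjusted p = 0.437). Summed over the list, the samples stood at 2542, 1978 and 3732 CPM in vehicle and 5748, 2889.7 and 8753 in 6-OHDA. In that sum 6-OHDA 2 lay between vehicle 1 and vehicle 3.

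In blood endothelium 6-OHDA 3 was high as well. In general capillary cells Hspa1b stood at 14.4, 5.73 and 108 CPM in vehicle and 45.1, 12.6 and 613 in 6-OHDA. 6-OHDA 3 and vehicle 3 were the highest of their groups there too, as in the lymphatic cells, whereas 6-OHDA 1 lay below vehicle 3. The lymphatic effect on Hspa1b exceeded the mean effect in the 3 other endothelial types by 2.15 on the log2 scale (SE 0.83, edgeR adjusted p = 0.585), and for Hsph1 by 2.05 (SE 0.64, edgeR adjusted p = 0.415). Neither difference passed.

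Mir6236 is annotated as a microRNA gene. Its mature form is shown because the table counts transcripts assigned to the gene, and mature microRNAs were not measured. The sequence is from RefSeq on GRCm38.p6, chr9:110281353-110281371 on the plus strand, with the seed, bases 2 to 8, in capitals.
mmu-miR-6236: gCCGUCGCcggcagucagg
In single-cell data, reads at this locus are often grouped with ribosomal RNA. It stood at 8133, 4486 and 4120.5 CPM in vehicle and 1654, 2340.1 and 1778 in 6-OHDA, where every value lay below every vehicle value. It fell by 1.59 on the log2 scale (SE 0.29, edgeR adjusted p = 0.00920). The difference from the mean effect in the 3 other endothelial types was 0.01 (edgeR adjusted p = 1). The edgeR call was lost without vehicle 1 (-1.22, adjusted p = 0.163), which had the highest level, and narrowly without 6-OHDA 1 or 6-OHDA 3 (adjusted p = 0.0645 and 0.0688). The list of genes linked to ribosomal RNA, which includes Mir6236, summed to 12797, 7500 and 8749 CPM in vehicle. In 6-OHDA that list summed to 5748, 9786 and 4878 CPM, and 6-OHDA 2 lay above vehicle 2 and 3.

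**Figure D4:**
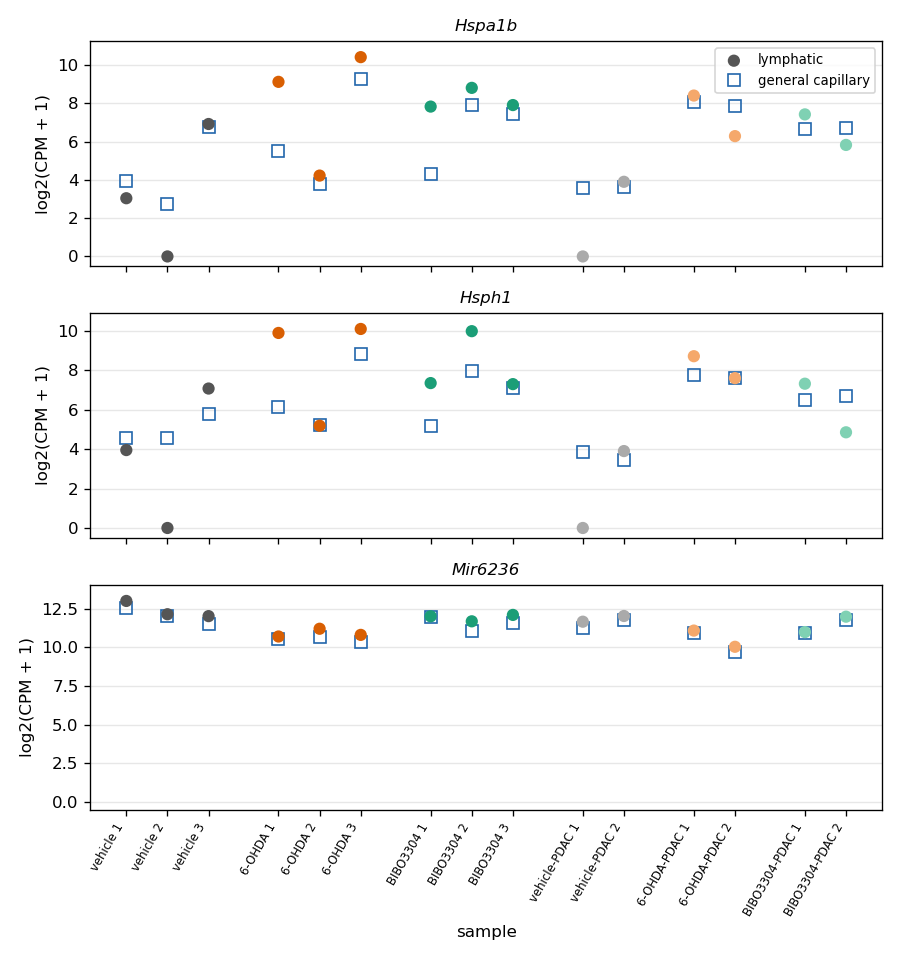
Hspa1b, Hsph1 and Mir6236 as log2(CPM + 1) in every sample, for lymphatic cells (points coloured by group) and general capillary cells (open squares). In lymphatic cells, Hspa1b and Hsph1 are high in 6-OHDA 1 and 3 and not in 6-OHDA 2; for Mir6236 all 3 6-OHDA samples lie below the vehicle samples.

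No lymphatic identity gene passed the test for 6-OHDA. Of 22 identity genes, 18 were tested, 0 were called, and 5 estimates lay above 0, with a median of -0.12. The 95% intervals of the log2 fold change were -0.68 to 0.40 for Prox1, -0.61 to 0.44 for Mmrn1, -0.46 to 0.56 for Flt4 and -0.78 to 0.26 for Ccl21a. Of 30 axon guidance genes 16 were tested, with a median of -0.35 and 0 calls. Ntn1 had 1854, 1881 and 2020.1 CPM in vehicle and 1137, 1383 and 1117 in 6-OHDA, with no overlap, but did not pass (-0.71, edgeR adjusted p = 0.567). Of 22 lipid metabolism genes 7 were tested, all with estimates below 0 (median -0.70) and none called. The cyclic AMP response genes, which report signalling downstream of beta receptors, had a median of 0.27 over 12 tested, with 0 calls. Tek was at 217, 145 and 401 CPM in vehicle and 165, 142 and 22.8 in 6-OHDA (-1.23, edgeR adjusted p = 0.645), low in 6-OHDA 3 alone.

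Pex14 and Tnc had the next smallest p and did not pass. Pex14, a peroxisome import gene, had 0 transcripts in all 3 6-OHDA samples and 57.9, 169 and 174 CPM in vehicle (edgeR adjusted p = 0.0975). Tnc, the matrix protein tenascin C, was at 0, 1259 and 91.2 CPM in 6-OHDA and 79.7, 48.2 and 0 in vehicle (edgeR adjusted p = 0.200). All 71 of its transcripts in 6-OHDA 2 came from 1 cell of 36.

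Between BIBO3304 and vehicle, edgeR called 0 genes (0%), with 171 at an unadjusted p under 0.05, and DESeq2 called 0. Of the heat shock genes, 14 of 15 estimates lay above 0, with a median of 0.54 against 0.02 over all genes. This comparison shares its vehicle samples with that of 6-OHDA. Hspa1b stood at 227, 449 and 240.1 CPM in the 3 BIBO3304 samples, all above the 3 vehicle samples (2.88, edgeR adjusted p = 0.329). Hsph1 stood at 162, 1012 and 156 CPM, also without overlap (3.11, edgeR adjusted p = 0.329). Neither passed the test over all genes. The summed heat shock list stood at 2542, 1978 and 3732 CPM in vehicle and 3971, 5643 and 3423 in BIBO3304. In that sum BIBO3304 3 lay below vehicle 3.

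Chil3, a chitinase-like protein typical of alveolar macrophages, had the smallest p of this comparison. It was at 145, 193 and 268 CPM in vehicle and 10.8, 0 and 50.3 in BIBO3304 (-2.79, edgeR adjusted p = 0.276). The whole alveolar macrophage list, of 10 detected genes, summed to 934 to 1579 CPM in the vehicle and 487 to 1114 in the BIBO3304 samples, and the list of 10 general leukocyte genes to 456 to 749 and 210.1 to 346 CPM. The part of such transcripts in the other differences was not tested. The ferritin heavy chain gene Fth1 was at 623, 531 and 535 CPM in vehicle and 119, 162 and 307 in BIBO3304, lower in every sample, and did not pass (-1.37, edgeR adjusted p = 0.329).

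Of the 18 identity genes tested, 11 had estimates above 0 under BIBO3304, with a median of 0.06 and 0 calls. The 95% intervals were -0.20 to 0.81 for Prox1 and -0.84 to 0.18 for Ccl21a. Of 22 genes of Vegfc, Tie and adrenomedullin signalling, 9 were tested, with 7 estimates above 0, a median of 0.18 and 0 calls. Angpt2 ranged widely, at 335, 506 and 106 CPM in BIBO3304 against 203, 169 and 107 in vehicle (0.87, edgeR adjusted p = 0.812). BIBO3304 1 and 2 were above every vehicle sample and BIBO3304 3 below them.

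Seeding with PDAC cells in vehicle mice gave 0 calls in edgeR (0%), 124 genes at an unadjusted p under 0.05 and 0 calls in DESeq2. Ppp1r13b, which encodes ASPP1, a partner of p53, stood at 601, 434 and 455 CPM without and 156 and 112 with PDAC cells. Both seeded samples lay below all 3 others (-1.75, SE 0.37, edgeR adjusted p = 0.0635). Without vehicle-PDAC 2, the sample with no annotated cancer cell, the change was -1.66 (edgeR adjusted p = 0.332). Nfatc2, a calcium-regulated transcription factor, was at 29.0, 72.3 and 13.4 CPM without and 615 and 154 with PDAC cells (3.68, SE 0.80, edgeR adjusted p = 0.0635). In vehicle-PDAC 1, 38 of its 67 transcripts came from 1 cell, and in 6-OHDA 2, at 727 CPM, 32 of 41 did. Without vehicle-PDAC 2 the change was 4.23 and passed (edgeR adjusted p = 0.0193). With that sample left out Lars2, a mitochondrial leucyl-tRNA synthetase gene named after its value was seen, changed by 2.10. Lars2 is on the same list of genes linked to ribosomal RNA as Mir6236. That list summed to 20481 CPM in vehicle-PDAC 1 and 7313 in vehicle-PDAC 2, against 12797, 7500 and 8749 in vehicle. The part of ribosomal RNA reads in the Lars2 change was not tested. The scaffold gene Akap12, at 1079, 482 and 1057 CPM without and 248 and 377 with PDAC cells, and Tsc22d2 and Cmah followed and did not pass, with or without vehicle-PDAC 2. The Akap12 change was -1.40 with that sample and -1.82 without it.

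Identity genes showed 8 of 18 estimates above 0 with PDAC cells, a median of -0.05 and 0 calls. The 95% interval for Flt4 was -0.43 to 0.68 and that for Mmrn1 -0.90 to 0.26. Without vehicle-PDAC 2 the median was -0.05, with 0 calls, and the intervals were -0.69 to 0.68 and -0.66 to 0.70. Genes of immune trafficking, 12 tested of 31, had a median of -0.16 and 0 calls, and Ccl21a stood at 3889, 2532 and 3331 CPM without and 2898 and 2526 with PDAC cells. Notch, BMP and TGF-beta pathway genes had a median of -0.44 over 11 tested, with 0 calls. The heat shock median was -0.37, with 3 of 15 estimates above 0. Leaving out vehicle-PDAC 2 gave medians of -0.28 for immune trafficking, -0.54 for Notch, BMP and TGF-beta and -0.91 for heat shock genes, of which 5 had estimates above 0, with 0 calls in each list.

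Among lungs with PDAC cells, 1 gene was called between 6-OHDA and vehicle (0.0349%), with 191 at an unadjusted p under 0.05 and 1 called by DESeq2. Prkg1, which encodes the cyclic GMP-dependent protein kinase, stood at 1605 and 1019 CPM in vehicle-PDAC and 199.6 in 6-OHDA-PDAC 1, from 10 transcripts (-2.61, SE 0.51, edgeR adjusted p = 0.0217). The sample left out, 6-OHDA-PDAC 2, was at 966 CPM, near the lower vehicle-PDAC value. With a minimum of 10 cells, which admits it, the change was -1.41 and the call was lost (edgeR adjusted p = 0.543). Leaving out either vehicle-PDAC sample compares 1 sample with 1, with the spread taken from the other groups. The change was -2.33 without vehicle-PDAC 1, where the call was also lost, and -2.80 without vehicle-PDAC 2. Such a fit cannot show that the call holds. Without vehicle-PDAC 2, Pde7b, a cyclic AMP phosphodiesterase gene named after its value was seen, changed by -3.26. Slc8a1, Slc41a1, Sftpc and Plpp1 had the next smallest p, none past the threshold with or without vehicle-PDAC 2. Sftpc, the surfactant gene of alveolar type 2 cells, was at 599 CPM in 6-OHDA-PDAC 1, where 20 of its 30 transcripts came from 1 cell. In that sample 1 cell also held 26 of 30 Slc8a1, 13 of 25 Slc41a1 or 19 of 50 Plpp1 transcripts. The sum of 8 alveolar type 2 genes in 6-OHDA-PDAC 1 was the highest of all samples, at 938 CPM.

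The heat shock genes had a median of 1.36 in this comparison, with all 15 estimates above 0 and 0 called, and without vehicle-PDAC 2 the median was 1.66, again with all 15 above 0 and 0 called. Hspa1b stood at 0 and 13.96 CPM in vehicle-PDAC, from 0 and 1 transcripts, and at 339 and 77.2 in 6-OHDA-PDAC, from 17 and 2. Both 6-OHDA-PDAC values exceeded both vehicle-PDAC values, but only 6-OHDA-PDAC 1 lay above the floor of 3 transcripts. Hspa1b changed by 5.70 on the log2 scale, from 6-OHDA-PDAC 1 alone, and did not pass. Without vehicle-PDAC 2 it also did not pass (edgeR adjusted p = 0.253). The summed list stood at 1880.3 and 1982 CPM in vehicle-PDAC, 5369 and 3747 in 6-OHDA-PDAC and 3798 and 4160.0 in BIBO3304-PDAC, with no overlap between vehicle-PDAC and the other 2 groups. Both treatments are compared with the same 2 vehicle-PDAC samples. Vehicle samples without cancer cells stood at 2542, 1978 and 3732 CPM, and vehicle 3 lay just below 6-OHDA-PDAC 2. The part of the shared vehicle-PDAC samples in these differences was not tested.

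Between BIBO3304-PDAC and vehicle-PDAC, edgeR called 0 genes (0%), with 185 at an unadjusted p under 0.05 and 0 called by DESeq2. Without vehicle-PDAC 2 it called 1, the ribosomal protein gene Rps12 (3.02, edgeR adjusted p = 0.0209). The constitutive HSP70 gene Hspa8 had the smallest p, at 266 and 265 CPM in vehicle-PDAC and 928 and 782 in BIBO3304-PDAC (1.84, SE 0.40, edgeR adjusted p = 0.116, and 1.95 without vehicle-PDAC 2, edgeR adjusted p = 0.115). The endoplasmic reticulum chaperone gene Hspa5 was at 248 and 433 CPM in vehicle-PDAC and at 867 and 893 in BIBO3304-PDAC (1.51, edgeR adjusted p = 0.214, and 2.06 without vehicle-PDAC 2, edgeR adjusted p = 0.115). The heat shock list had 13 of 15 estimates above 0 and a median of 0.85, and without vehicle-PDAC 2 12 of 15 and a median of 1.47. Cd74, the invariant chain of MHC class II, was at 64.2 and 69.8 CPM in vehicle-PDAC and at 208 and 642 in BIBO3304-PDAC (2.62, edgeR adjusted p = 0.214, and 2.76 without vehicle-PDAC 2, edgeR adjusted p = 0.230). The 10 leukocyte genes summed to 220.1 to 1312 CPM in vehicle-PDAC and 721 to 1424 in BIBO3304-PDAC, and their part in the Cd74 difference was not tested. Nfe2l2, the regulator of antioxidant genes, was at 174 and 139.6 CPM in vehicle-PDAC and at 12.2 and 27.9 in BIBO3304-PDAC (-2.95, edgeR adjusted p = 0.214). Without vehicle-PDAC 2 the Nfe2l2 change was -2.99 and also did not pass. Each BIBO3304-PDAC value was 1 transcript, below the floor of 3, against 19 and 10 in vehicle-PDAC.

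Whether a treatment acted differently with and without PDAC cells was tested directly. For 6-OHDA the difference gave 0 calls (0%) in edgeR and 0 in DESeq2, with 180 genes at an unadjusted p under 0.05 in edgeR. For BIBO3304 it gave 0 (0%) in edgeR and 0 in DESeq2, with 207. Among the genes of smallest p for 6-OHDA were Prkg1, Socs3, Nfatc2 and Cmah (edgeR adjusted p = 0.427 for each), all estimated with 6-OHDA-PDAC 1 alone. For BIBO3304 the smallest p belonged to the ribosomal protein genes Rplp1 and Rps12 and to Cd74, Wwtr1 and Tmsb4x (edgeR adjusted p from 0.198 to 0.309). Without vehicle-PDAC 2 the 6-OHDA difference again gave 0 calls. That of BIBO3304 gave 4, which were Rps12 (4.03, edgeR adjusted p = 0.00276), Tmsb4x (2.49, 0.0265), Lyz2 (2.98, 0.0288) and Chil3 (4.4996, 0.0367). Lyz2, the lysozyme gene of myeloid cells, was named after its value was seen, and Chil3 is on the alveolar macrophage list. That list summed to 853 to 1591 CPM in vehicle-PDAC, with vehicle-PDAC 2 included, and 1256 to 1392 in BIBO3304-PDAC. In the fit without vehicle-PDAC 2, all 5 tested genes of the list had estimates of this difference above 0, with a median of 3.13. The 3 tested general leukocyte genes were also all above 0, with a median of 3.25. The part of such transcripts in these calls was not tested. The 2 differences had a median SE of 0.99 and 0.78 on the log2 scale, against 0.51 for 6-OHDA and 0.45 for BIBO3304 without cancer cells.

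Other programmes gave few testable genes or no call. In all 5 comparisons between groups, 0 members were called of the lists of cyclic AMP response, endothelial junction, Notch, BMP and TGF-beta, matrix, immediate early, glucocorticoid, clock, interferon, MHC, NF-kB and proliferation genes. Of 25 type I interferon genes only 2 passed the filter on low counts in lymphatic cells, of 19 interferon-gamma genes 3, of 17 MHC genes 5 and of 21 proliferation genes 4. The 16 immediate early genes tested had medians of 0.23 for 6-OHDA, -0.20 for BIBO3304 and 0.14 for PDAC cells, and the 16 matrix genes -0.08, 0.24 and -0.15. The medians for PDAC cells changed sign without vehicle-PDAC 2, to -0.49 and 0.02. In that fit Pde7b, of the cyclic AMP list, changed by -3.26 between 1 6-OHDA-PDAC and 1 vehicle-PDAC sample.

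The lymphatic effect of each treatment was then compared with the mean effect in general capillary, aerocyte and large-vessel cells of the same samples, in 4524 genes. For 6-OHDA, 1 gene passed (0.0221%). Itpkb, a kinase of inositol trisphosphate, stood at 572, 362 and 508 CPM in vehicle and 248, 266 and 296 in 6-OHDA lymphatic cells, with no overlap. In general capillary cells its mean moved from 364 to 645 CPM, the opposite way. The difference of effects was -1.34 (SE 0.27, edgeR adjusted p = 0.0318).

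For BIBO3304, 5 genes passed (0.111%). Emp1, an epithelial membrane protein, was at 145, 410.0 and 254 CPM in vehicle and 649, 353 and 698 in BIBO3304 lymphatic cells, with BIBO3304 2 below vehicle 2 (difference of effects 1.61, SE 0.31, edgeR adjusted p = 0.00972). Tsc22d2, of a family of leucine zipper proteins, was at 253, 121 and 201 CPM in vehicle and 433, 392 and 497 in BIBO3304, without overlap (1.40, SE 0.29, edgeR adjusted p = 0.0250). In both genes the lymphatic effect lay above the mean effect in blood endothelium. The means of both genes in lymphatic cells of other groups were also above the mean of the same vehicle samples. For Emp1, vehicle-PDAC 2 lay below vehicle 2. Emp1 averaged 270 CPM in vehicle, 550 in 6-OHDA and 468 in vehicle-PDAC, and Tsc22d2 192, 366 and 445. The part of the shared vehicle samples in these differences was not tested. Ptprb, the endothelial phosphatase VE-PTP that acts on Tie2, was at 319, 265 and 388 CPM in vehicle and 595, 535 and 441 in BIBO3304, also without overlap (1.16, SE 0.26, edgeR adjusted p = 0.0356). Its lymphatic mean was 324 CPM in vehicle, 481 in 6-OHDA and 337 in vehicle-PDAC. In aerocytes its mean went from 123 to 37.2 CPM. Against general capillary cells alone the difference was 0.54 and did not pass (edgeR adjusted p = 0.691).

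In the other 2 the lymphatic effect lay below that mean. Ppp1r16b, a phosphatase regulator of endothelial cells also called TIMAP, was at 384, 458 and 468 CPM in vehicle and 249, 172 and 179 in BIBO3304, without overlap (-1.17, SE 0.26, edgeR adjusted p = 0.0356). Under 6-OHDA it stood at 165, 213 and 137 CPM, and in vehicle-PDAC it averaged 208. Zbtb46, a zinc finger factor of dendritic cells and endothelium, was at 196, 96.5 and 187 in vehicle and 97.4, 95.5 and 55.8 CPM in BIBO3304 (-1.63, SE 0.37, edgeR adjusted p = 0.0458), with vehicle 2 inside the BIBO3304 range. It averaged 93.0 CPM in 6-OHDA and 94.5 in vehicle-PDAC, against 160 in vehicle.

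For PDAC cells, 2 genes passed (0.0442%), and they were the 2 of smallest p within lymphatic cells. Ppp1r13b differed by -1.77 (SE 0.32, edgeR adjusted p = 0.00348) and Nfatc2 by 4.04 (SE 0.84, edgeR adjusted p = 0.0245). Without vehicle-PDAC 2 the adjusted p was 0.0378 for Ppp1r13b and 0.0127 for Nfatc2. In that fit 7 genes were called. Without vehicle-PDAC 1 the Nfatc2 difference was 2.90 and did not pass (edgeR adjusted p = 0.676).

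**Figure D5:**
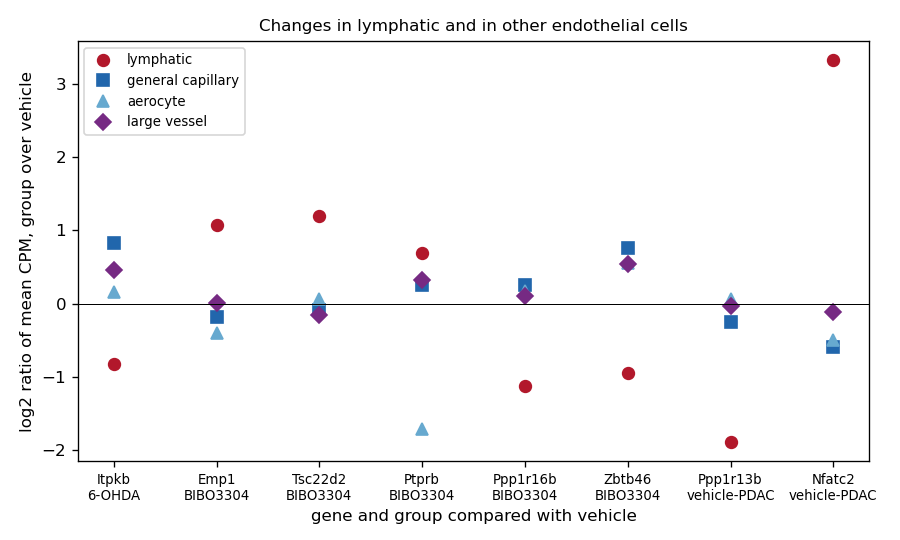
Log2 ratio of mean CPM, treated or seeded group over vehicle, for the 8 genes whose lymphatic effect differed from that of the other endothelial types, with the gene and the group compared named on the horizontal axis. Each symbol is 1 endothelial type; the lymphatic symbol lies apart from the other 3 in each gene, except that for Ptprb the aerocyte symbol lies farthest from the rest.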

How the data were processed

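Transcripts per gene and cell are the authors' deposited counts, whole numbers with no normalization. The annotation, treatment, seeding and sample of each cell come from the deposited cell table, whose percent of mitochondrial transcripts per cell is the authors' value and was only described. The remaining columns of that table are deposited labels. Per the submitters' processing notes, the build was mm39 and Seurat 5.3.0 was used. Not given in the sources used here were the aligner, the counting tool and the cell filters. GEO samples are sublibraries that pool all conditions, so the replicate is the sample named in the cell table.

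Counts were summed per sample over lymphatic cells (samples of at least 20 cells, 14 of 15) and tested with edgeR 4.0.16 in R 4.3.3 (TMM scaling, filterByExpr, all 6 groups in 1 fit, threshold 0.05). The difference from other endothelial types was an interaction in a fit with the sample as a block. Cell shares were tested on cell numbers. The scripts were tested on simulated data. Alternatives were DESeq2 1.42.0, other scaling, no filter, the compared groups alone, a replicate block, a minimum of 10 cells and each sample left out. P-values measure the spread between samples, which may be technical. Exact binomial intervals at 95% and floors of 3 counts cover counting error only. Doublets were not called here; an alternative chosen after seeing the data left out cells with 2 or more transcripts of Ptprc, Chil3, Sftpc, Scgb1a1, Col1a1 or Col3a1. The minimum of 10 cells was also added then.

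Genes named per comparison are those called (up to 10 in each direction at 20 CPM or more) and, with fewer than 8, the 5 of smallest p; list members were named at 20 CPM or more, or up to 4 per other list. Single low or absent members were named after their values were seen. Some genes that these rules name are not reported here. The members and lists were chosen with earlier results of these data known. Promoters and the microRNA were matched by symbol in RefSeq tables of GRCm38.p6.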

Additional observations from a re-analysis of the deposited data

Results flagged for a closer look

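In 8 genes the effect of a treatment or of PDAC cells in lymphatic cells differed, by edgeR's test of the difference over 4524 genes, from the mean effect in general capillary, aerocyte and large-vessel endothelium. For Itpkb under 6-OHDA the difference was -1.34 on the log2 scale; leaving out any 1 of the 6 samples lost the call, while the difference stayed at -1.39 to -1.28 (edgeR adjusted p from 0.0620 to 0.221). Under BIBO3304 the differences were 1.61 for Emp1, 1.40 for Tsc22d2, 1.16 for Ptprb, -1.17 for Ppp1r16b and -1.63 for Zbtb46. They share their vehicle samples with the 6-OHDA and PDAC comparisons. The calls of Ptprb and Zbtb46 were lost whichever of the 6 samples was left out, with differences of 1.03 to 1.32 and -1.80 to -1.32. Emp1 kept its call in 3 of the 6 left-out fits, losing it without vehicle 1, vehicle 3 or BIBO3304 3 (edgeR adjusted p = 0.222, 0.0819 and 0.192), Tsc22d2 kept it in 2 and Ppp1r16b in 1. With PDAC cells the difference was -1.77 for Ppp1r13b, which kept its call in 3 of 5 left-out fits, and 4.04 for Nfatc2, which kept it in 2 of 5. The cells behind Nfatc2 were few, 8 of 41 in vehicle-PDAC 1. Cell depth differed alongside, since the BIBO3304 lymphatic cells had a median of 1910, 3278 and 2587 transcripts against 1294, 965.5 and 1103 in vehicle, and its part in these differences was not tested.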

How the results depend on the processing

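The calls rest on few samples. Without the gene filter edgeR called 6 genes for 6-OHDA, 3 for BIBO3304, 2 for PDAC cells, 5 for 6-OHDA with PDAC cells, 1 for the 6-OHDA difference with and without PDAC cells and 5 for that of BIBO3304. With the compared groups alone it called 1 for 6-OHDA, 2 for PDAC cells and 7 for 6-OHDA with PDAC cells. DESeq2 called 1 for 6-OHDA. With a minimum of 10 cells, added after seeing the data, both 6-OHDA comparisons gave 0, and without cells holding transcripts of other types, also added then, 6-OHDA with PDAC cells gave 3. A minimum of 50 cells left 1 vehicle and 1 BIBO3304 sample and was not run. A replicate block called 1 gene for BIBO3304, 1 for BIBO3304 with PDAC cells and 1 for the BIBO3304 difference. It also moved the number for 6-OHDA with PDAC cells, a group of 1 sample. Without PDAC cells, same-numbered samples deviated from their group means with correlations of -0.07 to 0.06. Counting error lowers such correlations, so they cannot decide whether the numbers pair the samples, and no label says so. Of the lymphatic minus other endothelial differences, 6-OHDA gave 0 calls with RLE size factors and BIBO3304 1 against general capillary cells alone.

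Leaving out 1 sample at a time gave 0 to 4 calls for 6-OHDA, 0 to 6 for BIBO3304, 0 to 2 for PDAC cells, 0 to 2 for 6-OHDA with PDAC cells, 0 to 1 for BIBO3304 with PDAC cells, 0 to 0 for the 6-OHDA and 0 to 4 for the BIBO3304 difference with and without PDAC cells. For the difference from other endothelial types it gave 0 to 1, 0 to 3 and 0 to 7 calls for 6-OHDA, BIBO3304 and PDAC cells. The log2 ratio of the lymphatic share ranged over 0.051 to 0.60 for 6-OHDA, 0.19 to 0.73 for BIBO3304, -0.55 to 0.00037 for PDAC cells, -0.18 to 0.20 for 6-OHDA and 0.21 to 0.47 for BIBO3304 with PDAC cells. It changed sign, none of it past the threshold, without alveolar macrophages in the total for 6-OHDA (-0.058), BIBO3304 (-0.0068) and 6-OHDA with PDAC cells (-0.44), and as a share of endothelial cells for BIBO3304 (-0.36) and 6-OHDA with PDAC cells (-0.24). Of single genes, with no library left out, 256 values kept their side of the threshold, 22 moved past it and 11 lost it. With a library left out these were 192, 12 and 46.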
